A study of Homo sapiens with 6 samples.

Results

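Transcripts of 38 epithelial junction and polarity genes were followed in A549 cells, a human lung adenocarcinoma line grown in RPMI medium with 10% fetal bovine serum. The 38 genes were chosen by name, with earlier results of these data known. All were found among the 58735 genes of the deposited tables. They comprise 7 adherens junction and adhesion genes, 10 membrane proteins and 3 scaffolds of the tight junction, 4 polarity genes, 8 desmosome genes, 4 regulators of epithelial identity, 1 trafficking gene and 1 surface protease gene. RNA was sequenced from 3 groups of 2 libraries each. The first, called T133A, carried lentiviral PLVX-HOXB9 with a threonine-to-alanine substitution in the homeodomain protein HOXB9. The second was labelled as a HOXB9 knockout and is called KO. The third, called WT, carried lentiviral PLVX-HOXB9 without the substitution. All 3 groups were given as stably infected cells, and no untreated or empty-vector cells are among them. The labels do not say whether the groups were clones, whether replicates were separate cultures, or whether the cells' own HOXB9 gene was intact in the T133A and WT groups. The p-values therefore measure only the spread between these libraries, which may be technical.

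Epithelial cells hold to each other through adherens junctions, built on E-cadherin and catenins, and through desmosomes, in which desmosomal cadherins are tied to keratin filaments by plakoglobin, plakophilins and desmoplakin. Tight junctions seal the space between cells with claudins, occludin and related membrane proteins, which are joined to actin by ZO proteins, while the PAR and Crumbs complexes set the apical side of the cell. Transcription factors of the SNAIL and ZEB families are known to repress E-cadherin and other junction genes during epithelial to mesenchymal transition.

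Libraries held 16299059 to 18745432 counts. HOXB9 itself was read at 275 and 210.3 CPM in T133A, 14.5 and 15.4 CPM in KO, and 222 and 217 CPM in WT. CPM is the read count relative to the library total, scaled by the trimmed mean of M values (TMM). KO libraries were far below both other groups, by a log2 fold change of -3.88 (SE 0.135) against WT, and T133A and WT overlapped. Reads of the lentiviral and the cells' own HOXB9 cannot be told apart here. The epithelial keratins KRT8 and KRT18 were abundant in all 6 libraries, KRT8 at 3988 to 5740 CPM. The alveolar type 2 markers SFTPC, SFTPB, SFTPA1 and NKX2-1 were at or near 0 in every library. NAPSA, a further alveolar type 2 marker, was read at 0.753 to 2.23 CPM over the 6 libraries. KRT19 was read at 30.0 to 45.4 CPM over the 6 libraries. KRT7, a further simple-epithelial keratin, stood at 1227 to 1402 CPM in T133A, 1638 to 1926 CPM in KO and 869.7 to 888 CPM in WT, and was higher than WT in both T133A (log2 fold change 0.58) and KO (1.02). Summed haematopoietic markers, 4 genes, stood at 11.4 to 13.2 CPM in T133A, 5.34 to 11 CPM in KO and 8.37 to 11.6 CPM in WT. CD14 made up most of that sum, with PTPRC and CD3E at or near 0. Summed fibroblast markers, 6 genes, stood at 40.4 to 42.1 CPM in T133A, 9.4 to 10.3 CPM in KO and 41.8 to 42.2 CPM in WT. COL3A1 and LUM made up most of that sum in T133A and WT, while COL1A2 was at or near 0 in all 6 libraries. COL1A1 went the other way and made up most of the KO sum. It stood at 8.8 and 5.88 CPM in T133A, 9.04 and 9.9 CPM in KO, and 6.43 and 6.36 CPM in WT. It was higher in KO than in WT by a log2 fold change of 0.57. Summed endothelial markers, 3 genes, stood at 2.12 and 2.24 CPM in T133A, 0.182 and 0.215 CPM in KO, and 1.7 and 0.557 CPM in WT. PECAM1 made up most of that sum in T133A and WT. The part of all these markers in the results below was not tested. Mitochondrial transcripts took 8.51% to 8.91% of counts in T133A, 4.45% to 5.6% in KO and 7.84% to 7.87% in WT.

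In KO cells most junction genes were lower than in WT cells, and in T133A cells most did not pass the test against WT. The 34 members that passed the filter on low counts were tested by edgeR's quasi-likelihood test, fitted to all 16340 genes that passed, with Benjamini-Hochberg adjusted p under 0.05 as the threshold. The 4 members that did not pass were ESRP2, GRHL2, OVOL1 and RAB25. In KO against WT, 22 members were lower, 2 were higher and 10 did not pass, while 46.6% of all tested genes passed in that comparison, 23.0% lower and 23.6% higher. With a correction for GC content and length, 60.3% of all calls were higher in KO, against 50.7% without it, and 6 members passed as higher. The median log2 fold change of the 34 was -0.72, beside 0.00 over all tested genes. Of the 22, 12 were lower by a log2 fold change of 1 or more, which 10.6% of all tested genes were. In T133A against WT, 3 members were higher, 4 were lower and 27 did not pass, with 9.55% of all tested genes passing, 5.58% higher and 3.97% lower. Their median was -0.02, beside 0.00 over all tested genes. The 3 higher became 1 without WT replicate 1 and 5 without T133A replicate 2, and the 4 lower became 1 without WT replicate 1 and 2 without WT replicate 2 or T133A replicate 2. In T133A against KO, 18 members were higher, 3 were lower and 13 did not pass, with 39.9% of all tested genes passing, 20.3% higher and 19.6% lower. With the GC and length correction 39.7% of all calls in this comparison were higher, against 50.9% without it. Of the 18, 9 were higher by a log2 fold change of 1 or more, as were 9.24% of all tested genes. The median of the 34 was 0.74, beside -0.01 over all tested genes. The T133A and KO comparisons with WT share the WT libraries, and the comparisons of WT and T133A with KO share the KO libraries. As the members were chosen with earlier results of these data known, the counts only describe the list beside all genes. In these bulk samples, fewer cells expressing a gene and less RNA per cell cannot be told apart.

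**Figure D1:**
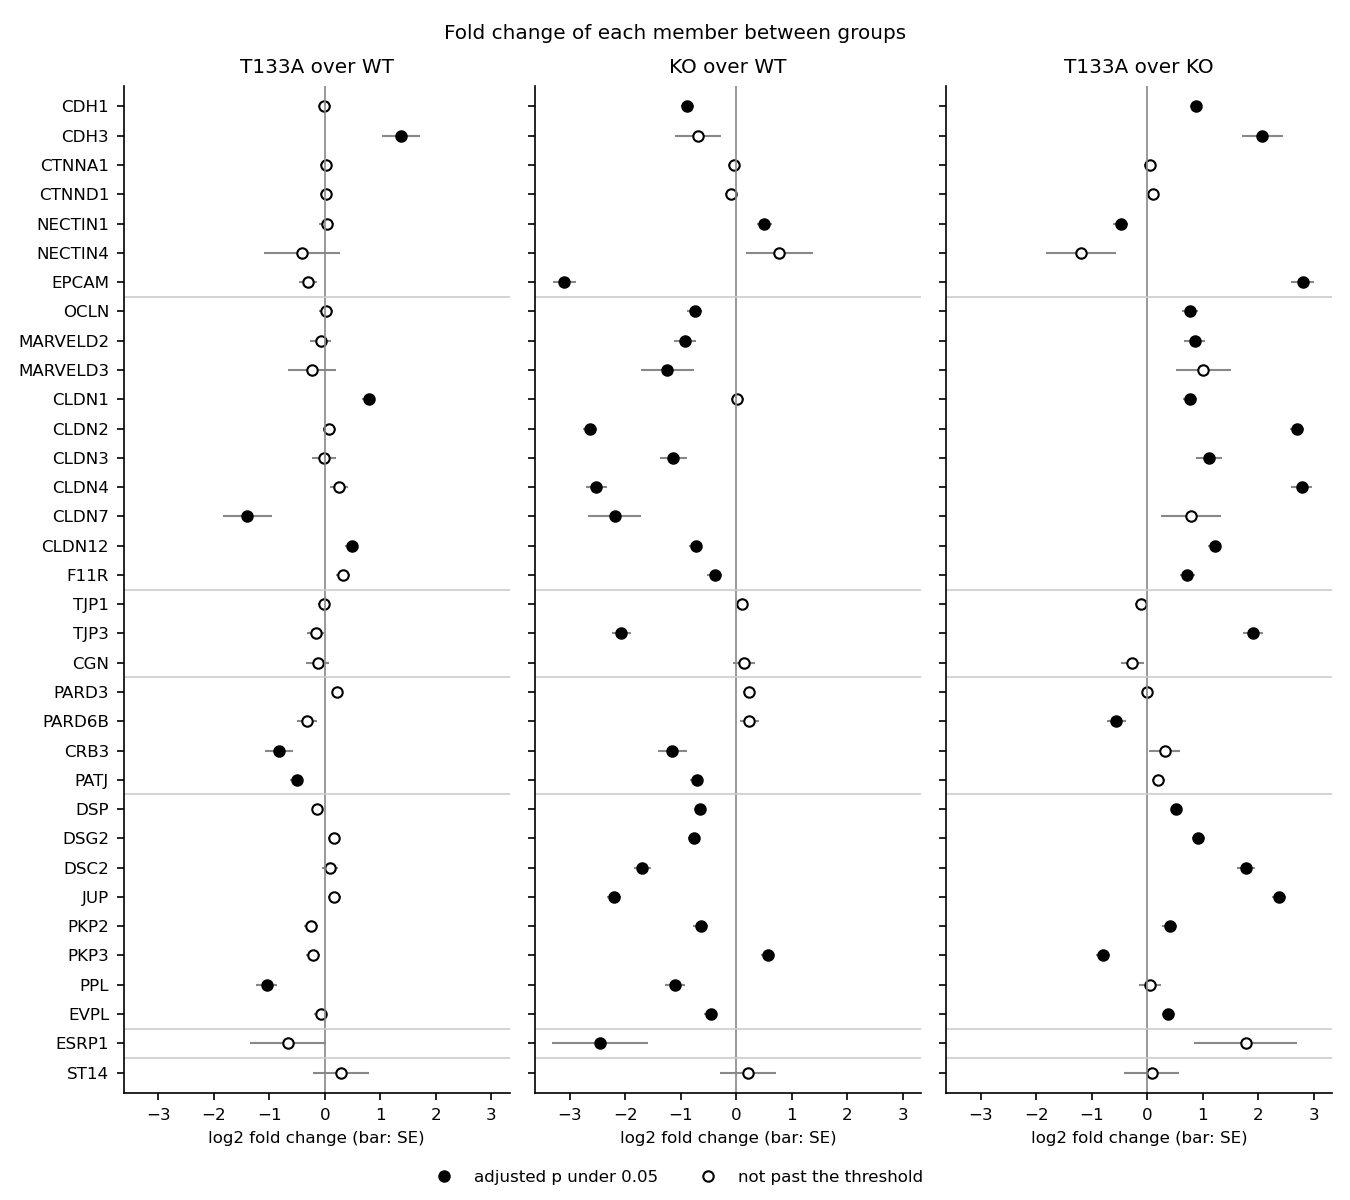
Fold changes of the 34 tested members (rows, grouped by role) in T133A over WT, KO over WT and T133A over KO, on a log2 scale, with bars for 1 standard error. Filled points passed an adjusted p of 0.05. In the KO over WT panel 22 filled points lie left of 0 and 2 lie right of it.

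**Figure D2:**
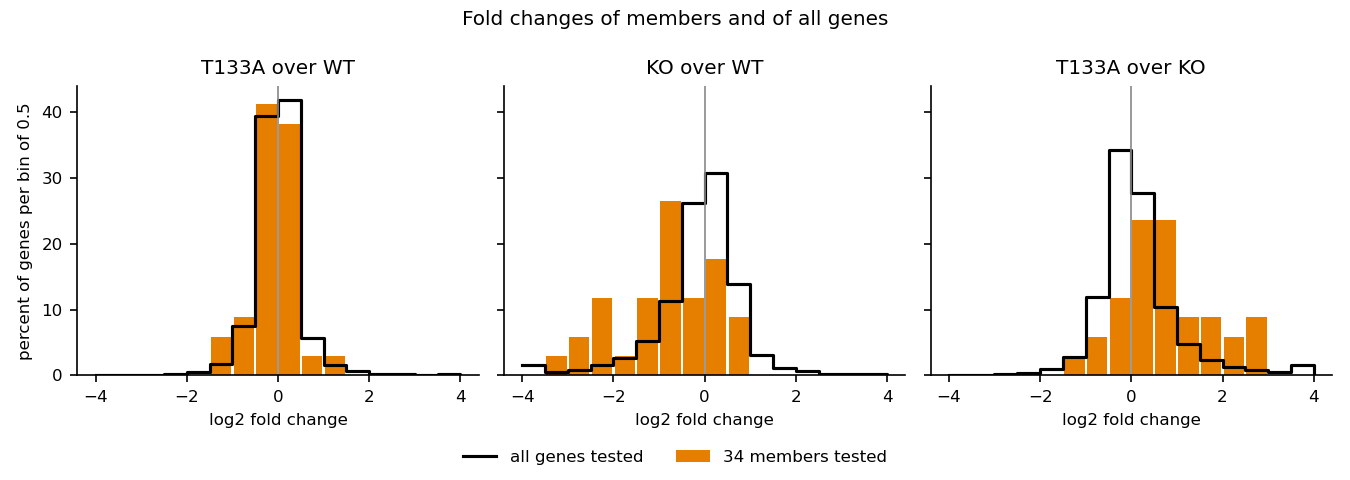
Distribution of log2 fold changes in bins of 0.5 for the 34 tested members (bars) and all 16340 tested genes (line), as percent of each, with values beyond the axis counted in the end bins. The members' median is -0.02 in T133A over WT, -0.72 in KO over WT and 0.74 in T133A over KO.

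Calls of the members fell into a few combinations. The share of all tested genes with each combination was not counted, so the combinations only describe the members. Over all tested genes, 23.0% were lower in KO than in WT and 20.3% were higher in T133A than in KO. Between T133A and WT, 9.55% of all tested genes passed. A set of 15 members was lower in KO than in WT and higher in T133A than in KO, with no call between T133A and WT: CDH1, EPCAM, OCLN, MARVELD2, CLDN2, CLDN3, CLDN4, F11R, TJP3, DSP, DSG2, DSC2, JUP, PKP2 and EVPL. CLDN7, CRB3, PATJ and PPL were lower than WT in both T133A and KO. CLDN12 was higher than WT in T133A and lower than WT in KO. CDH3 and CLDN1 were higher in T133A than in either other group, and NECTIN1 and PKP3 were higher in KO than in either other group. MARVELD3 and ESRP1 were lower in KO than in WT and had no other call, and PARD6B was lower in T133A than in KO and had no other call. CTNNA1, CTNND1, NECTIN4, TJP1, CGN, PARD3 and ST14 passed in none of the 3 comparisons.

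**Figure D3:**
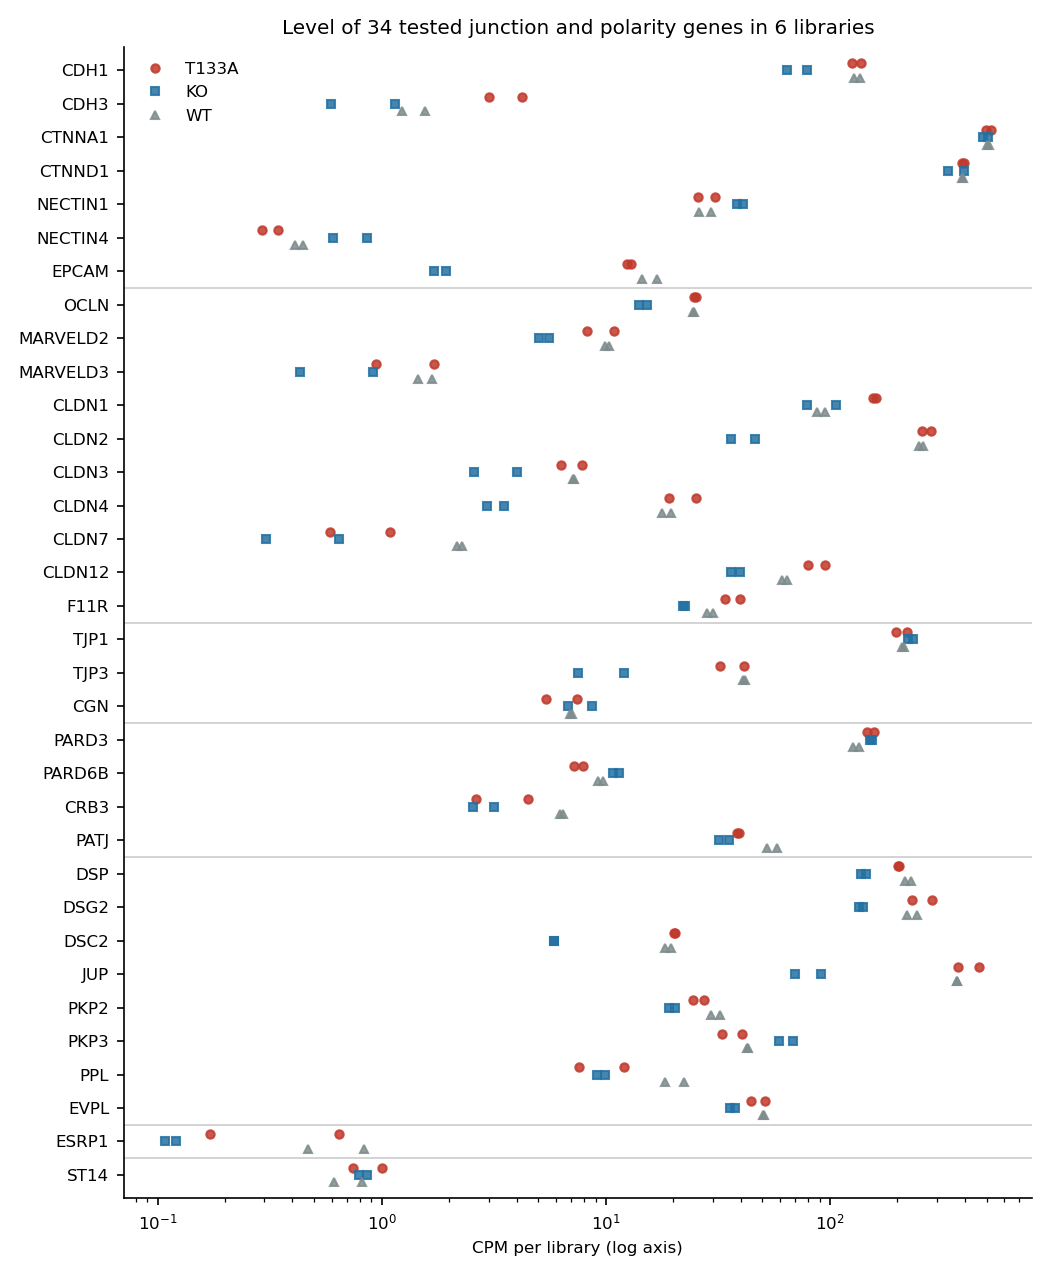
Level of each of the 34 tested members in the 6 libraries, in TMM-scaled CPM on a log axis, with T133A as circles, KO as squares and WT as triangles. CLDN2, JUP, EPCAM and CLDN4 show the KO pair far to the left of the other 4 libraries, while CTNNA1 and TJP1 show all 6 libraries together.

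Promoter sequence was at hand for 20 of the 38 members, as 32 windows of the 250 bases before a transcript start (RefSeq, GRCh38.p14). CDH1 and EPCAM were not among the 20. The E-box CACCTG, the letters recognised by SNAIL and ZEB proteins, was searched on both strands, where it reads CAGGTG on the other. It occurred in 13 of the 32 member windows, or 40.6%, and in 17.5% of 35116 windows of the same length over all genes. The windows over all genes were not matched for GC content, and a gene with several windows counts more than once. Some member windows with the E-box lie wholly in annotated exons, as for CLDN7, PATJ and 1 window of OCLN. By gene, the E-box occurred in 9 of the 14 members that were lower in KO than in WT and had a window, and in 2 of the 5 other tested members with a window. The share by gene over all genes was not counted. The grainyhead-like core AACCGG, read CCGGTT on the other strand, occurred in 5 of 32 member windows and in 5.99% of all windows. The posterior HOX core TTTATGG, also searched on both strands, occurred in 0 of 32 member windows and in 2.3% of all windows. The homeodomain core TAATTA, which reads the same on both strands, occurred in 0 of 32 member windows and in 4.35% of all windows. The 4 motifs were counted separately. Stretches outside annotated exons are shown for 3 desmosome genes that were lower in KO and hold the E-box, for 2 claudin genes that were lower in KO and do not, and for the scaffold gene TJP1, which holds it and was not called. Capitals mark the E-box on either strand, each stretch runs 5′ to 3′ on the gene's strand, and positions are GRCh38.p14. DSC2, on the minus strand, spans chr18:31102523-31102671. DSG2, on the plus strand, spans chr18:31497927-31498042. DSP, on the plus strand, spans chr6:7541421-7541574. CLDN2, on the plus strand, spans chrX:106918110-106918359, ahead of a start inside the gene. CLDN3, on the minus strand, spans chr7:73770271-73770520. TJP1, on the minus strand, spans chr15:29969050-29969299. A match describes the letters and does not show binding.
DSC2: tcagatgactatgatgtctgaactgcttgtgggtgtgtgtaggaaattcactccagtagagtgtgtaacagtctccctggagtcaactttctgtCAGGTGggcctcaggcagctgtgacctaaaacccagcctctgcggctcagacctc
DSG2: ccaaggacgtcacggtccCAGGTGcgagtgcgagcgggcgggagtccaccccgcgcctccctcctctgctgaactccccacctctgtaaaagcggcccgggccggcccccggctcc
DSP: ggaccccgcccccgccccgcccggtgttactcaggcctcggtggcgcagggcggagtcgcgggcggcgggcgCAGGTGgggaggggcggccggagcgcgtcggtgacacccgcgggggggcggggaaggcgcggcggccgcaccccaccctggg
CLDN2: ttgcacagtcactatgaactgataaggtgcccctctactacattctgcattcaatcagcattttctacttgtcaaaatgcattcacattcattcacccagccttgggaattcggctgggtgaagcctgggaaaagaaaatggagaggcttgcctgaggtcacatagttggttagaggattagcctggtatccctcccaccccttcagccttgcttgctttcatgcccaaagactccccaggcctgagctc
CLDN3: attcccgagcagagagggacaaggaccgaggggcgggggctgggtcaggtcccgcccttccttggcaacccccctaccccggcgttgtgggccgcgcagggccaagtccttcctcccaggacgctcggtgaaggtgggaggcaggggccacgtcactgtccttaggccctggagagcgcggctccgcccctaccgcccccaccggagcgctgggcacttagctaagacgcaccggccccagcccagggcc
TJP1: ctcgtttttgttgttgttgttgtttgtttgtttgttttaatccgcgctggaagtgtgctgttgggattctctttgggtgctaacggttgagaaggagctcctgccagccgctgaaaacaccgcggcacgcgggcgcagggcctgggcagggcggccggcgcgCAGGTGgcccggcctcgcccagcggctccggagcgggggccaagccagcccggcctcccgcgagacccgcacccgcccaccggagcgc

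Among the adherens junction and adhesion genes, CDH1 and EPCAM were lower in KO and the catenins passed in no comparison. CDH1, encoding E-cadherin, the main cadherin of epithelial adherens junctions (chr16:68737225-68835548, plus strand), was read at 138 and 125 CPM in T133A, 64.5 and 79.0 CPM in KO, and 128 and 137 CPM in WT. Both KO libraries lay below the other 4, and T133A and WT overlapped. CDH1 was lower in KO than in WT by a log2 fold change of -0.88 (SE 0.113, edgeR adjusted p = 1.34e-06), a 1.84-fold difference, and differed by -0.01 (SE 0.111, adjusted p = 0.984) in T133A against WT. EPCAM, encoding a membrane protein of epithelial cells that associates with claudins, stood at 13.0 and 12.5 CPM in T133A, 1.94 and 1.72 CPM in KO, and 14.5 and 17.0 CPM in WT. Its KO levels were far below both other groups, and its T133A libraries were just below WT. The fold change of EPCAM was -3.10 (SE 0.208, adjusted p = 4.01e-11) in KO against WT, 8.58-fold lower, and -0.30 (SE 0.164, adjusted p = 0.281) in T133A against WT.

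CDH3, encoding P-cadherin, had low levels, 4.25 and 3.0 CPM in T133A, 1.15 and 0.592 CPM in KO, and 1.23 and 1.56 CPM in WT. Its T133A libraries lay above all others, with a log2 fold change of 1.37 (SE 0.346, adjusted p = 0.0119) against WT and 2.07 (SE 0.373, adjusted p = 0.00012) against KO. The call against WT did not pass without WT replicate 1 (adjusted p = 0.115), without T133A replicate 1 (0.122) or with DESeq2 (0.0524). CDH3 ends 14609 bases ahead of CDH1 on chromosome 16, and T133A stood apart for CDH3 and KO for CDH1. NECTIN1, encoding an adhesion receptor that binds afadin, stood at 30.8 and 25.8 CPM in T133A, 38.4 and 40.8 CPM in KO, and 26.1 and 29.4 CPM in WT. Both KO libraries were the highest, by a log2 fold change of 0.51 (SE 0.131, adjusted p = 0.00292) over WT, a call that did not pass without WT replicate 1 (0.0737).

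The catenins that bind cadherins inside the cell, CTNNA1 and CTNND1, passed in no comparison. CTNNA1, encoding alpha-catenin, ran from 481 to 522 CPM over all 6 libraries, with log2 fold changes of 0.01 (SE 0.0988) in T133A against WT and -0.04 (SE 0.0988) in KO against WT. CTNND1, encoding p120-catenin, ran from 338 to 397 CPM, with log2 fold changes of 0.01 (SE 0.102) in T133A against WT and -0.09 (SE 0.103) in KO against WT. CTNND1 shares bases with the read-through gene TMX2-CTNND1. NECTIN4 was below 1 CPM in every library, at 0.294 to 0.345 CPM in T133A, 0.607 to 0.861 CPM in KO and 0.409 to 0.446 CPM in WT, and passed in no comparison. Summed over the 7 adherens genes, the level was 1050.3 to 1106 CPM in T133A, 925 to 1025 CPM in KO and 1064 to 1086 CPM in WT.

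Of the 10 membrane proteins of the tight junction, all tested, 9 were lower in KO than in WT, and CLDN1 was the exception. Over all tested genes, 23.0% were lower in that comparison. CLDN2, encoding a claudin that forms cation-permeable pores (chrX:106900164-106930861, plus strand), stood at 282 and 256 CPM in T133A, 36.1 and 46.3 CPM in KO, and 249.5 and 260.5 CPM in WT. The KO pair was far below the other 4 libraries, which overlapped. CLDN2 was lower in KO than in WT by a log2 fold change of -2.63 (SE 0.121, adjusted p = 5.22e-14), or 6.17-fold, and differed by 0.08 (SE 0.111, adjusted p = 0.737) in T133A against WT. CLDN2 lies inside the span of MORC4 on the other strand, and MORC4 was higher than WT by log2 fold changes of 0.73 in T133A and 0.99 in KO. As the strand setting of the counting is not given in the sources used here, reads from bases the pair share cannot be told apart. CLDN4, encoding a barrier-forming claudin of many epithelia, stood at 25.4 and 19.1 CPM in T133A, 3.52 and 2.96 CPM in KO, and 17.8 and 19.5 CPM in WT. It was lower in KO than in WT by -2.52 (SE 0.193, adjusted p = 3.64e-10), or 5.76-fold, and T133A and WT overlapped.

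CLDN3, a neighbour of CLDN4 at 29272 bases, stood at 7.82 and 6.29 CPM in T133A, 4.01 and 2.58 CPM in KO, and 7.19 and 7.14 CPM in WT. It was lower in KO than in WT by -1.13 (SE 0.236, adjusted p = 0.00046). CLDN7 was low throughout, at 1.09 and 0.588 CPM in T133A, 0.304 and 0.646 CPM in KO, and 2.28 and 2.17 CPM in WT, and both WT libraries were above the other 4. CLDN7 was lower than WT in KO by a log2 fold change of -2.19 (SE 0.48, adjusted p = 0.000714). That value ranged from -2.86 to -1.75 as each library was left out. In T133A it was lower than WT by -1.40 (SE 0.441, adjusted p = 0.0477), and this call was lost without WT replicate 1 (0.226), WT replicate 2 (0.17) or T133A replicate 2 (0.195) and with DESeq2 (0.156). The T133A call of CLDN7 was also lost in the fit without mitochondrial genes (edgeR adjusted p = 0.0504). CLDN12 stood at 79.5 and 95.5 CPM in T133A, 39.8 and 36.1 CPM in KO, and 61.0 and 64.6 CPM in WT. The 3 groups did not overlap, with T133A highest and KO lowest. The log2 fold change of CLDN12 was 0.48 (SE 0.116, adjusted p = 0.00888) in T133A against WT and -0.73 (SE 0.119, adjusted p = 3.04e-05) in KO against WT. The T133A call did not pass without WT replicate 1 (0.166) or WT replicate 2 (0.0698). CLDN12 shares part of its span with GTPBP10 and CDK14 on the same strand.

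CLDN1, encoding a barrier-forming claudin, was the 1 of the 6 member claudins that did not pass in KO against WT. It stood at 156 and 159.9 CPM in T133A, 106 and 79.1 CPM in KO, and 95 and 87.4 CPM in WT. KO and WT overlapped, at a log2 fold change of 0.02 (SE 0.121, adjusted p = 0.893), and both T133A libraries were above all others. CLDN1 was higher in T133A than in WT by 0.79 (SE 0.12, adjusted p = 8.38e-05), and the call held without each library in turn. With a correction for GC content and length CLDN1 also passed as higher in KO than in WT. Per kilobase of gene length, the 6 claudins summed to 149 and 142 CPM in T133A, 49.5 and 43.5 CPM in KO, and 118 and 120.5 CPM in WT. CLDN2 made up 55.5% and 52.9% of that sum in T133A, 21.4% and 31.3% in KO, and 61.7% and 63.4% in WT. CLDN1 made up 28.5% and 30.7% in T133A, 58.6% and 49.7% in KO, and 21.9% and 19.8% in WT. Thus CLDN1 was the most abundant claudin in both KO libraries and CLDN2 in the other 4, and no test was run on these shares.

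**Figure D4:**
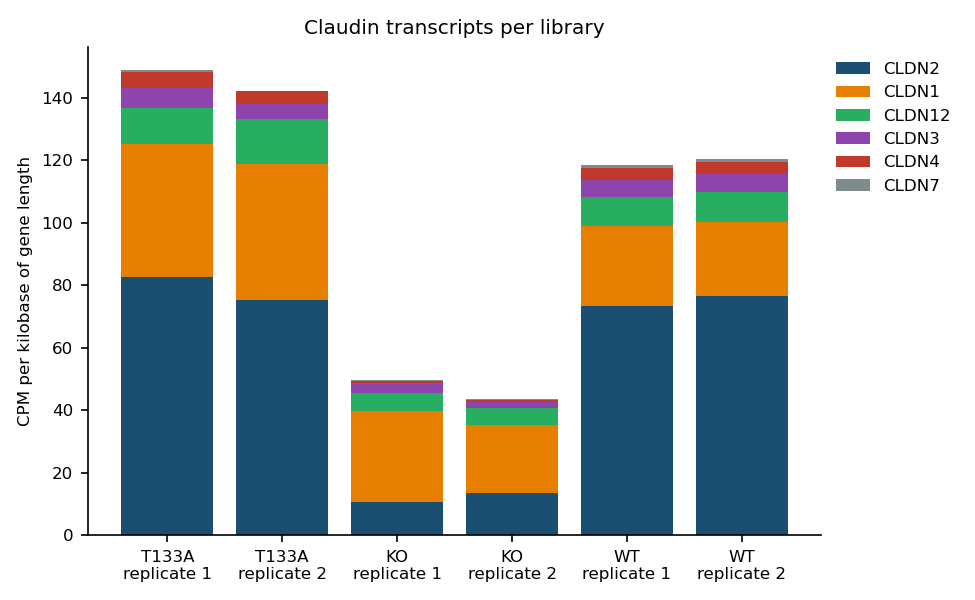
Levels of 6 claudin genes in each library, as CPM per kilobase of gene length, stacked by gene. The KO bars total 49.5 and 43.5, with CLDN1 their largest segment, and CLDN2 is the largest segment of the T133A and WT bars.

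The other membrane proteins of the tight junction, OCLN, MARVELD2, F11R and MARVELD3, were also lower in KO than in WT. OCLN, encoding occludin, stood at 25.2 and 24.8 CPM in T133A, 15.3 and 14.0 CPM in KO, and 24.4 and 24.7 CPM in WT. The KO pair was lower, by a log2 fold change of -0.75 (SE 0.138, adjusted p = 0.000128) against WT, and T133A stood within 1 CPM of WT. MARVELD2, encoding tricellulin of tricellular contacts and lying 47962 bases ahead of OCLN, was at 8.22 and 10.9 CPM in T133A, 5.04 and 5.60 CPM in KO, and 9.94 and 10.3 CPM in WT, and was lower in KO by -0.92 (SE 0.196, adjusted p = 0.000522). F11R, encoding the adhesion molecule JAM-A, stood at 39.8 and 33.9 CPM in T133A, 22 and 22.6 CPM in KO, and 30.2 and 28.4 CPM in WT. Its KO libraries were lowest and its T133A libraries highest, and it was lower in KO than in WT by -0.39 (SE 0.133, adjusted p = 0.0189). That call was lost without WT replicate 1 (0.176), WT replicate 2 (0.0693) or KO replicate 1 (0.0807), and against KO, T133A was higher by 0.72 (SE 0.132, adjusted p = 0.00013). MARVELD3 had 1.72 and 0.941 CPM in T133A, 0.911 and 0.431 CPM in KO, and 1.46 and 1.67 CPM in WT. Its call in KO against WT, -1.24 (SE 0.483, adjusted p = 0.0397), was lost with DESeq2 (0.103) and without WT replicate 1 (0.0749), WT replicate 2 (0.15) or KO replicate 2 (0.268, at -0.79). MARVELD3 overlaps PHLPP2 on the other strand, which was lower in KO than in WT by -1.06 (SE 0.113).

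Of the 3 scaffold genes that tie these proteins to actin, TJP3 was lower in KO and the other two passed in no comparison. TJP1, encoding ZO-1, stood at 198 and 221 CPM in T133A, 234 and 222 CPM in KO, and 214 and 209 CPM in WT. The groups lay close together, with log2 fold changes of -0.02 (SE 0.1, adjusted p = 0.955) in T133A against WT and 0.11 (SE 0.1, adjusted p = 0.398) in KO against WT. With the GC and length correction TJP1 passed as higher in KO than in WT, at 0.38 (adjusted p = 9.2e-05). TJP3, encoding ZO-3, stood at 41.2 and 32.2 CPM in T133A, 7.53 and 12.1 CPM in KO, and 41.7 and 40.9 CPM in WT. Both KO libraries were far below the other 4, and TJP3 was lower in KO than in WT by -2.07 (SE 0.174, adjusted p = 1.83e-09), or 4.19-fold. CGN, encoding cingulin, ran from 5.41 to 8.67 CPM over the 6 libraries and passed in no comparison.

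Of the 4 polarity genes, CRB3 and PATJ of the Crumbs complex were lower than WT in both other groups, and PARD3 and PARD6B were not. That contrast covers these members only. Among related genes of the wider list below, MPP5 was at -0.11 in T133A and 0.09 in KO against WT and did not pass. In KO against WT, PRKCI was lower by -0.44 and PARD6G higher by 0.97. CRB3, encoding the Crumbs protein of epithelial cells, stood at 4.48 and 2.65 CPM in T133A, 2.55 and 3.18 CPM in KO, and 6.25 and 6.47 CPM in WT. Both WT libraries were above the other 4. CRB3 was lower than WT in KO by a log2 fold change of -1.15 (SE 0.258, adjusted p = 0.000942) and in T133A by -0.83 (SE 0.252, adjusted p = 0.0374). The T133A call was lost with DESeq2 (0.114) and without WT replicate 1 (0.117), WT replicate 2 (0.144) or T133A replicate 2 (0.262, at -0.50). PATJ, encoding a scaffold of the Crumbs complex, stood at 38.4 and 39.2 CPM in T133A, 32.1 and 35.4 CPM in KO, and 58.0 and 52.5 CPM in WT. Its groups did not overlap, and it was lower than WT in T133A by -0.51 (SE 0.119, adjusted p = 0.00659), a call lost without WT replicate 1 (0.186), and in KO by -0.71 (SE 0.119, adjusted p = 4.28e-05). Between T133A and KO, neither CRB3 (0.31, SE 0.274) nor PATJ (0.20, SE 0.121) passed. PARD3, encoding PAR-3, stood at 158 and 147 CPM in T133A, 151 and 155 CPM in KO, and 127 and 135 CPM in WT. It was at 0.22 (SE 0.101, adjusted p = 0.188) in T133A and 0.23 (SE 0.101, adjusted p = 0.0695) in KO against WT. PARD6B, encoding PAR-6 beta, was at 7.93 and 7.23 CPM in T133A, 10.8 and 11.5 CPM in KO, and 9.76 and 9.20 CPM in WT. It was lower in T133A than in KO by -0.56 (SE 0.174, adjusted p = 0.0136), which did not pass without T133A replicate 2 (0.067) or KO replicate 2 (0.0736). With the GC and length correction PARD3 and PARD6B passed as higher in KO than in WT.

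All 8 desmosome genes passed in KO against WT, 7 of them lower and PKP3 higher. Over all tested genes 46.6% passed in that comparison, 23.0% lower and 23.6% higher. JUP, encoding plakoglobin, which serves desmosomes and adherens junctions alike (chr17:41754604-41786931, minus strand), stood at 461 and 373 CPM in T133A, 70.0 and 91.0 CPM in KO, and 369 and 370.3 CPM in WT. The KO pair was far below the other 4 libraries. JUP was lower in KO than in WT by a log2 fold change of -2.20 (SE 0.127, adjusted p = 2.83e-12), or 4.59-fold, and at 0.17 (SE 0.119, adjusted p = 0.417) in T133A against WT. DSC2, encoding desmocollin 2, was at 20.4 and 20.1 CPM in T133A, 5.89 and 5.87 CPM in KO, and 19.5 and 18.4 CPM in WT, lower in KO than in WT by -1.69 (SE 0.159, adjusted p = 1.17e-08). DSG2, encoding its partner cadherin desmoglein 2, was at 233 and 285 CPM in T133A, 140.3 and 134 CPM in KO, and 244 and 221 CPM in WT, lower in KO than in WT by -0.76 (SE 0.11, adjusted p = 6.95e-06). These desmosomal cadherin genes lie 395521 bases apart on chromosome 18, and both are among the promoters printed above. DSP, encoding desmoplakin, the link to keratin, was at 204 and 202 CPM in T133A, 138 and 145 CPM in KO, and 229.5 and 217 CPM in WT. Its T133A libraries lay between the other groups, and it was lower in KO than in WT by -0.66 (SE 0.0988, adjusted p = 1.09e-05).

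The plakophilin genes PKP2 and PKP3 differed between KO and WT in opposite directions. PKP2 stood at 24.5 and 27.5 CPM in T133A, 19.1 and 20.4 CPM in KO, and 32.4 and 29.4 CPM in WT, lower in KO than in WT by -0.64 (SE 0.135, adjusted p = 0.000458). PKP3 stood at 40.5 and 32.9 CPM in T133A, 59.1 and 68.4 CPM in KO, and 42.5 and 42.9 CPM in WT, higher in KO than in WT by 0.58 (SE 0.124, adjusted p = 0.000603). Both encode armadillo-repeat proteins of the desmosomal plaque. PKP2 was higher in T133A than in KO by 0.40 (SE 0.136, adjusted p = 0.0238), and this was lost without WT replicate 1 (0.0559), WT replicate 2 (0.0557), T133A replicate 2 (0.12) or KO replicate 1 (0.141), with no filter (0.0508) and with the GC and length correction (0.0756). PPL, encoding periplakin, stood at 12.0 and 7.58 CPM in T133A, 9.89 and 9.10 CPM in KO, and 18.3 and 22.3 CPM in WT. Both WT libraries were above the other 4. PPL was lower than WT in T133A by -1.05 (SE 0.186, adjusted p = 0.000502) and in KO by -1.10 (SE 0.186, adjusted p = 4.81e-05), and the T133A call held without each library in turn. EVPL, encoding envoplakin, the partner of periplakin, was at 51.4 and 44.6 CPM in T133A, 37.6 and 36.0 CPM in KO, and 50.2 and 51.0 CPM in WT. EVPL was lower in KO than in WT by -0.46 (SE 0.119, adjusted p = 0.00299), and T133A was higher than KO by 0.38 (SE 0.119, adjusted p = 0.0129), which did not pass without T133A replicate 1 (0.065) or KO replicate 2 (0.0596).

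The 4 member regulators of epithelial identity were scarcely read in any group. Of related genes in the wider list below, GRHL3 stood at 3.76 and 5.38 CPM in KO and 7.54 and 8.48 CPM in WT. It was lower in KO than in WT by a log2 fold change of -0.80. OVOL2 was lower by -2.15 on few counts, 1 and 4 in KO, and GRHL1 did not pass. ESRP1, an epithelial splicing factor, had 3 and 11 counts in T133A, 2 and 2 counts in KO, and 8 and 15 counts in WT. Its summed KO level was 0.174 times that of WT, with an exact 95% counting interval of 0.0437 to 0.509. The edgeR call for KO against WT (log2 fold change -2.45, SE 0.86, adjusted p = 0.0234) was lost with DESeq2 (0.077) and without WT replicate 2 (0.216), KO replicate 1 (0.107) or KO replicate 2 (0.143). ESRP2, its paralog, had 11 and 1 counts in T133A, 2 and 4 counts in KO, and 8 and 10 counts in WT. GRHL2, a grainyhead-like activator of CDH1 and claudin genes, had 4 and 8 counts in T133A, 0 and 0 counts in KO, and 2 and 8 counts in WT. A count of 0 allows up to 3 counts, or 0.16 to 0.184 CPM by library, so absence from KO cells cannot be shown at this depth. GRHL2 passed as lower in KO than in WT when no filter was used. OVOL1, a repressor of ZEB1 in epithelia, had 0 and 1 counts in T133A and 0 in the other libraries. RAB25, a small GTPase of apical recycling, had 0 and 2 counts in T133A, 2 and 1 counts in KO, and 0 and 0 counts in WT. ST14, encoding the membrane protease matriptase, ran from 0.613 to 1.0 CPM over the 6 libraries and passed in no comparison.

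The WT and T133A comparisons with KO use the same KO libraries, which favours higher T133A values in genes picked as low in KO. How many of all genes low in KO were higher in T133A was not counted, so the values here only describe the members. Over all tested genes, 20.3% were higher in T133A than in KO. T133A cells were above KO cells in most of the members that were low in KO. In T133A against KO the largest differences among them were for EPCAM, higher by a log2 fold change of 2.80 (SE 0.211, edgeR adjusted p = 2.94e-10), CLDN4 by 2.78 (SE 0.192, adjusted p = 6.36e-11), CLDN2 by 2.70 (SE 0.121, adjusted p = 2.71e-14) and JUP by 2.37 (SE 0.127, adjusted p = 6.84e-13). TJP3 was higher by 1.90, DSC2 by 1.78, CLDN12 by 1.21 and CLDN3 by 1.11. CDH1 (0.88, adjusted p = 1.78e-06), DSG2 (0.92), MARVELD2 (0.85), OCLN (0.77) and DSP (0.52) were higher by less. CLDN1, which was not called lower in KO than in WT, was higher in T133A than in KO by 0.77. PKP3 and NECTIN1 were lower in T133A than in KO, PKP3 by -0.80 (SE 0.125, adjusted p = 2.38e-05) and NECTIN1 by -0.48 (SE 0.131, adjusted p = 0.00515). TJP1 was at -0.12 (adjusted p = 0.353) and ESRP1 at 1.77 (SE 0.933, adjusted p = 0.138), and neither passed. TJP1 did pass as lower in T133A than in KO with the GC and length correction, at -0.30 (adjusted p = 0.00109). The ESRP1 value became 2.45 without T133A replicate 1 and 0.56 without T133A replicate 2. Of the remaining defining genes in T133A against WT, OCLN was at 0.02 (SE 0.133, adjusted p = 0.943), DSP at -0.14 (SE 0.098, adjusted p = 0.439) and ESRP1 at -0.67 (SE 0.683, adjusted p = 0.61). For ESRP1 that value became 0.00 without T133A replicate 1, -1.88 without T133A replicate 2, -1.02 without WT replicate 1 and -0.20 without WT replicate 2.

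Ranked by level per kilobase of gene length, JUP and CLDN2 led the members in T133A, at 84.4 and 78.9 CPM per kilobase. In KO, CTNNA1 led at 56.0 CPM per kilobase and CTNND1 was next at 41.6, while JUP was at 16.3, rank 8, and CLDN2 at 12.1, rank 10. In WT, JUP and CLDN2 shared first place at 74.8 CPM per kilobase, followed by CTNNA1 at 57.4, CTNND1 at 44.4 and DSG2 at 37.5. The ratio of JUP to CTNNB1, the gene for the related beta-catenin, was 3.85 and 3.16 per kilobase in T133A, 0.57 and 0.736 in KO, and 3.4 and 3.45 in WT. The KO libraries alone had less JUP than CTNNB1 per kilobase. The ratio of CDH1 to CDH2, the N-cadherin gene, was 1.34 and 1.27 in T133A, 1.08 and 1.38 in KO, and 2.09 and 2.11 in WT. T133A and KO overlapped in this ratio and lay below WT. Against WT, T133A had a call for CDH2 and none for CDH1, and KO had a call for CDH1 and none for CDH2.

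Genes known to repress E-cadherin, with N-cadherin and vimentin, are given beside these values. SNAI2, encoding SLUG, stood at 0.862 and 0.235 CPM in T133A, 5.89 and 6.35 CPM in KO, and 0.234 and 0.335 CPM in WT. Both KO libraries were far above the other 4, by a log2 fold change of 4.39 (SE 0.431, adjusted p = 2.25e-08) over WT. T133A was lower than KO in SNAI2 by -3.46 (SE 0.386, adjusted p = 1.99e-07), a value of -4.64 without T133A replicate 1 and -2.82 without T133A replicate 2. SNAI1, encoding SNAIL, stood at 1.55 and 1.35 CPM in T133A, 3.76 and 5.06 CPM in KO, and 0.994 and 0.613 CPM in WT, and was higher in KO than in WT by 2.46 (SE 0.347, adjusted p = 4.97e-06). ZEB2 was at 9.49 and 8.53 CPM in T133A, 3.46 and 3.23 CPM in KO, and 6.25 and 5.47 CPM in WT. It was lower in KO than in WT by -0.81 (SE 0.22, adjusted p = 0.00446), which did not pass without WT replicate 1 (0.0633) or with the GC and length correction (0.307). ZEB1 ran from 19.4 to 24.9 CPM and TWIST1 from 5.41 to 6.92 CPM over the 6 libraries, and neither passed in any comparison. CDH2 stood at 82.4 and 78.7 CPM in T133A, 47.8 and 45.7 CPM in KO, and 49.0 and 51.9 CPM in WT, and was higher in T133A than in WT by 0.67 (SE 0.109, adjusted p = 0.000177). VIM, encoding the mesenchymal filament protein vimentin, stood at 512 and 469 CPM in T133A, 655 and 668 CPM in KO, and 367 and 372 CPM in WT. It was higher than WT in KO by 0.84 (SE 0.1, adjusted p = 4.55e-07) and in T133A by 0.41 (SE 0.0997, adjusted p = 0.00992), and the T133A call did not pass without WT replicate 1 (0.202) or WT replicate 2 (0.169). The part of these regulators in the junction values was not tested.

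**Figure D5:**
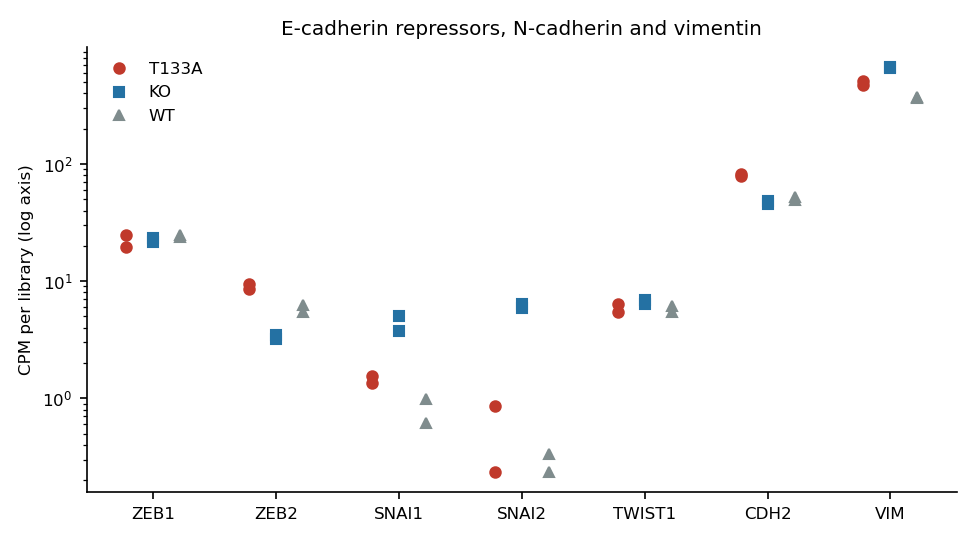
Levels of 5 genes encoding E-cadherin repressors, of CDH2 (N-cadherin) and of VIM (vimentin) in each library, in TMM-scaled CPM on a log axis, with T133A, KO and WT side by side for each gene. The KO pair stands highest for SNAI1, SNAI2 and VIM, and the T133A pair highest for ZEB2 and CDH2.

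A wider list of 73 further names of junction, polarity and epithelial genes was drawn up, also with earlier results of these data known. Of these names, 72 were found and 51 passed the filter. In KO against WT 20 were lower, 8 were higher and 23 did not pass, with a median log2 fold change of -0.26. The share called was 54.9%, beside 46.6% of all tested genes, of which 23.0% were lower and 23.6% higher. Among those lower were CXADR, a tight junction adhesion receptor, at 15.7 and 18.7 CPM in KO against 40.7 and 38.3 CPM in WT, and DLG3, of the Scribble module, at 10.2 and 13.2 CPM in KO against 30.7 and 30.1 CPM in WT. LLGL2, a basolateral polarity protein, stood at 82.5 and 78.1 CPM in T133A, 47.0 and 64.1 CPM in KO, and 121 and 127 CPM in WT, and was lower than WT in both T133A (-0.62, adjusted p = 0.00139) and KO (-1.15, adjusted p = 9.25e-08). LSR, encoding angulin-1 of tricellular contacts, was lower in KO than in WT by -0.93 (adjusted p = 2.65e-06), and SPINT2, a serine protease inhibitor of epithelia, by -0.69 (adjusted p = 9.39e-06). VCL, encoding vinculin, was higher in KO than in WT by 0.79 (adjusted p = 9.11e-07). Of the Scribble module, SCRIB itself was also higher in KO than in WT, by 0.67 (adjusted p = 1.33e-05), and DLG1, DLG5 and LLGL1 did not pass.

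In T133A against WT, 3 of the 51 were higher, 3 were lower and 45 did not pass, with a median of -0.02. The share called, 11.8%, was near the 9.55% of all tested genes. AMOT, encoding angiomotin, was at 5.06 and 2.88 CPM in T133A and 0.526 and 0.892 CPM in WT, higher by 2.47 (SE 0.413, adjusted p = 0.000259). PERP, a desmosomal membrane protein gene, was higher by 0.37 (adjusted p = 0.0146), a call lost without WT replicate 1 (0.193) or WT replicate 2 (0.289), and CDH2 was the third. AP1M2, an epithelial subunit of the AP-1 clathrin adaptor, stood at 1.49 and 2.41 CPM in T133A, 10.8 and 13.3 CPM in KO, and 4.50 and 5.13 CPM in WT. It was lower than WT in T133A by -1.30 (SE 0.263, adjusted p = 0.00182) and higher than WT in KO by 1.33 (SE 0.214, adjusted p = 2.65e-05). MAL2, of apical transport, was lower in T133A by -1.53 (adjusted p = 0.0363), a call lost with DESeq2 (0.131) and without WT replicate 1 (0.327), WT replicate 2 (0.103), T133A replicate 1 (0.13) or T133A replicate 2 (0.0996). In T133A against KO, 19 of the 51 were higher, 7 were lower and 25 did not pass, with a median of 0.18. The share called was 51.0%, beside 39.9% of all tested genes, of which 20.3% were higher and 19.6% lower. CXADR (1.24), DLG3 (1.07), LSR (0.90), CDH2 (0.78) and SPINT2 (0.69) were higher in T133A than in KO, and AP1M2 was lower by -2.63 (log2 fold changes).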

How the data were processed

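The authors deposited 1 table per library, 6 in all, listing for every gene its whole-number count of reads and its FPKM. Per the submitters' processing notes, HISAT2 2.0.5, featureCounts 1.5.0 and the build GRCh38 were used. The annotation release was not stated, nor was the strand setting: neither is given in the sources used here. The deposited FPKM values divided counts by gene length and by 0.967 to 1.031 times the library total, and were used only for this check.

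From the counts, a robust quasi-likelihood model (edgeR 4.0.16 in R 4.3.3; TMM, filterByExpr, group as its term) covered 16340 of the 31579 genes with a count, at a biological coefficient of variation of 8.96%. Two-sided p-values were Benjamini-Hochberg adjusted over all tested genes. Levels are TMM-scaled CPM, and levels between genes are per kilobase of the deposited gene length. The scripts were tested on simulated data.

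Samples were grouped by genotype label, and T133A, KO and WT were compared pairwise. Alternatives were other scaling (RLE, library size), DESeq2 1.42.0, limma-voom (limma 3.58.1), other low-count filters, only the groups compared, a replicate block, a loess correction (span 0.5) for GC content and length, and each library left out. A fit without mitochondrial genes and a crossed block were added after seeing the data. Totals of 16299059 to 18745432 counts put 3 counts, the floor for a count of 0, at 0.16 to 0.184 CPM. Intervals and floors cover counting error only.

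All 38 members are named, with fold changes for those called and, in every comparison, for the defining members CDH1, EPCAM, OCLN, TJP1, DSP and ESRP1. Some values of uncalled members are given as well. From the wider list, the calls with the smallest adjusted p are named, up to 6 per comparison. Further genes of that list are named beside the polarity members, the regulators and the genes of the Scribble module. The members and lists were chosen with earlier results of these data known. Promoter windows come from RefSeq, and exons from GENCODE 29.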

Additional observations from a re-analysis of the deposited data

How the results depend on the processing

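The count of members called lower in KO than in WT, 22, was 18 to 23 under the alternatives that kept all libraries. It was lowest with a minimum mean of 5 CPM, where fewer members were tested, and highest with no filter, where GRHL2 was added. Leaving out each library in turn gave 19 to 22 lower and 1 to 3 higher in KO against WT. The same gave 1 to 5 higher and 1 to 4 lower in T133A against WT, and 17 to 18 higher and 2 to 3 lower in T133A against KO. For the wider list it gave 2 to 6 higher and 2 to 4 lower in T133A against WT, 6 to 11 higher and 13 to 23 lower in KO against WT, and 18 to 20 higher and 6 to 8 lower in T133A against KO. Over all genes it gave 763 to 2579 calls in T133A against WT, 5306 to 8496 in KO against WT and 5112 to 6580 in T133A against KO. A lone library left in a group was assumed to vary like the other groups. The groups did not vary alike. Measured against counting error, the chi-square per degree of freedom between replicates was 10.1 in T133A, 12.1 in KO and 2.46 in WT. The fits shared their estimate of spread over the groups, so standard errors and p-values do not reflect that difference.

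DESeq2 and the minimum of 5 CPM each called 2 members lower in T133A than in WT. The fit without mitochondrial genes called 3 members lower and 3 higher in that comparison. With the GC and length correction T133A against WT had 2475 calls over all genes, against 1560 without it, and the wider list had 7 higher and 5 lower, also with the replicate block. The correction called 6 members higher in KO than in WT, with or without the block, and 13 genes of the wider list lower in T133A than in KO, with or without the block. It put the median of all genes at 0.10 in KO against WT and -0.09 in T133A against KO. Scaling by library size made 45.0% of T133A calls against WT higher, where TMM gave 58.5%. The cause was not tested.

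In T133A against WT 3 near-zero values changed sign. OCLN became -0.05 with library size only. TJP1 became 0.08 with the GC correction, with or without the block, 0.00 without WT replicate 1 and 0.08 without T133A replicate 1. CDH1 ranged from -0.07 to 0.07 as each library was left out, at 0.03 without WT replicate 2 and 0.07 without T133A replicate 2. HOXB9 in T133A against WT became -0.05 without T133A replicate 1, and 0.33 (adjusted p = 0.0202) without T133A replicate 2.

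Same-numbered replicates did not deviate together, with correlations of -0.0515 for T133A and WT, 0.023 for KO and WT, and -0.118 for T133A and KO. The fit with the replicate block made 1419 calls in T133A against WT, 7165 in KO against WT and 6031 in T133A against KO, and its counts of members called were the same, 3 and 4, 2 and 22, and 18 and 3. With the T133A numbers exchanged the block gave 2830, 8624 and 7609 calls, and 5 genes of the wider list higher in T133A than in WT. GC content followed the difference of replicate 1 from replicate 2, at Spearman correlations across genes of 0.5 in T133A, -0.286 in KO and -0.18 in WT. It also followed the log2 fold changes between groups, at 0.262 in KO against WT, 0.167 in T133A against WT and -0.188 in T133A against KO. Levels near 1 CPM, as for CLDN7, MARVELD3 and ESRP1, rest on few counts.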
